A study of Mus musculus with 5 samples.

Results

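Egr1, Egr2, Egr3, Ier2, Ier3, Ier5, Zfp36, Dusp1, Btg2 and Klf6 are 10 immediate-early genes, described here in cancer cells taken from mouse lungs. They are 10 of the 23771 genes in the deposited table of cancer cells, and they were chosen by name with their levels in these libraries already known, so their difference between the libraries is a description and not a test. The study asked how a lung prepared by factors from a distant tumor changes the cancer cells that settle in it. Female BALB/c mice received 200 µL of control medium (CM) or of tumor-secreted factors (TSF) intravenously, 3 times per week for 3 weeks. TSF is culture medium in which pieces of mammary tumors were kept, with the supernatants of several tumors pooled, and CM is the same medium kept without tumor. All mice were then injected intravenously with 25000 cells of 4T1, a BALB/c mammary carcinoma line, that carried the surface protein CD90.1 as a reporter. Lungs were taken at day 16, when the mice were 11 weeks old. Cells from 3 mice were pooled before each library was made, so each group was 1 library (CM2 and TSF2), and the library was the unit of replication. With 1 library per group no test between the groups was possible, and none was made.

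Immediate-early genes are transcribed within minutes of a stimulus, without new protein synthesis, from regulators that are already in the cell. Growth factor signals reach them through the ERK kinases and the serum response factor (SRF) with its Elk partners, which bind the CArG box, and calcium and cyclic AMP signals reach them through CREB, which binds the cAMP response element. Their transcripts and proteins are short-lived, several of the proteins act back on the same signals, and enzymatic dissociation of tissue is known to induce many of them. Here the lungs of both groups were digested for 45 min at 37 °C. No undigested sample was analysed here, so induction during digestion and in the mouse cannot be told apart.

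The cells called cancer cells were few, 29 of 3835 cells in CM2 and 139 of 5197 cells in TSF2, so 1 cell was worth 3.45 percentage points in CM2 and 0.719 points in TSF2. Their depth was similar at the middle of the range, with a median of 27679 UMIs (unique molecular identifiers, each standing for 1 captured transcript) per cell in CM2 and 26615 in TSF2. At the lower end it was not, since 8 of the CM2 cells (27.6%) and 14 of the TSF2 cells (10.1%) had under 10000 UMIs. The median share of mitochondrial UMIs was 1.72% and 1.99%. The label was checked against 9 carcinoma markers. Krt8, an epithelial keratin, had a UMI in 29 of 29 and 137 of 139 cells, and Krt18 had one in 28 and 138. The keratins Krt7 (18 and 85 cells) and Krt19 (9 and 53 cells) were found in fewer cells. Fewer cells also had a UMI of Cdh1 (2 and 35 cells), Cldn4 (3 and 25) or Cldn7 (9 and 74). Of the 9 markers, only Krt8 and Krt18 were found in nearly all cells of both libraries. Epcam, an epithelial adhesion protein, had a UMI in 8 CM2 cells (27.6%) and 95 TSF2 cells (68.3%). The CD90.1 reporter had one in 2 (6.9%) and 48 (34.5%). Both shares were thus higher in TSF2. Per the study's methods, CD90.1 expression was what marked cancer cells when cells were first clustered. The part of the differences in Epcam and CD90.1 in the results was not tested. Of 16 leukocyte markers, 14 were at 0 cells in CM2, none of the 16 passed the filter on low values given below for all genes, and their summed mean level was 0.0202 CP10k in CM2 and 1.20 in TSF2. The summed levels were 0.0685 and 0.188 CP10k for 6 endothelial markers, 0.498 and 1.07 for 8 fibroblast and mural markers and 0.476 and 0.127 for 8 lung epithelial markers. Of these, only Pdgfra, from the fibroblast and mural list, passed the filter. It had a UMI in 13 CM2 cells (44.8%) and 63 TSF2 cells (45.3%), with means of 0.407 and 0.426 CP10k. The part of all these markers in the results was not tested. CP10k is the UMIs of a gene per 10000 UMIs of its cell, averaged over the cells of a library, and 1 UMI in a cell of median depth was worth 0.361 CP10k in CM2 and 0.376 in TSF2. The libraries shared 31 barcodes over all their cells and 0 among cancer cells.

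In the TSF2 library 9 of the 10 genes had a lower mean level than in CM2, and Btg2 was the exception. The sum of the 10 mean levels was 61.1 CP10k in CM2 and 29.0 CP10k in TSF2. Ratios between the libraries were taken as log2 of (TSF2 + 1) over (CM2 + 1), with means in CP10k and a pseudocount of 1, and a gene was called lower at -1 or below, which is a 2-fold decrease on that scale. By this call 5 of the 10 were lower, Egr1, Ier2, Zfp36, Klf6 and Ier5, and 0 were higher. All 10 passed the filter on low values, a mean of the libraries' shares of cells with a UMI of at least 10%. Of all 9533 genes that passed it, 0.566% (54 genes) were called lower and 0.136% (13 genes) higher. A log2 ratio below 0 was found for 60.2% of these genes, beside 9 of the 10. Because the genes were selected on this contrast, nothing is read from their count beside the background. The nearest to the threshold on its inner side were Ier5 and Klf6, both at -1.08, and the nearest on its outer side was Egr2, which at -0.46 was well short of it. The median log2 ratio was -0.77 over the 10 genes and -0.04 over all genes compared. When the libraries were instead centred on the median ratio of all genes, Ier5 (-0.99), Zfp36 (-0.96) and Klf6 (-0.95) were no longer past the threshold and 2 of the 10 were, while the calls over all genes changed from 54 lower and 13 higher (80.6% lower) to 44 lower and 22 higher (66.7% lower).

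**Figure D1:**
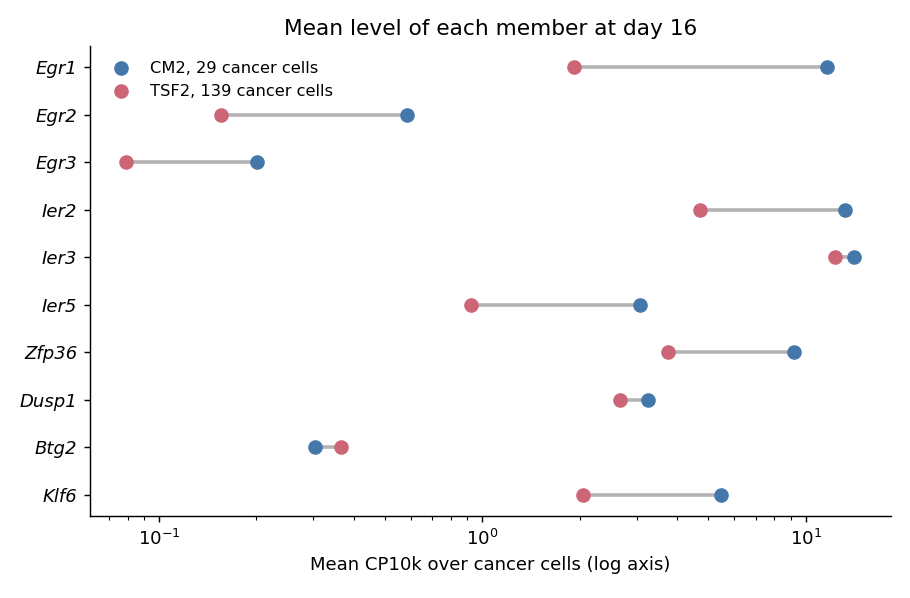
Mean level of the 10 genes in cancer cells of CM2 (blue, 29 cells) and TSF2 (red, 139 cells) at day 16, in CP10k on a log axis, 1 point per library and no error, since each group is 1 library. The red point lies left of the blue one for 9 genes, by the most for Egr1 (11.6 to 1.92 CP10k), and right of it for Btg2 (0.303 to 0.367 CP10k).

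**Figure D2:**
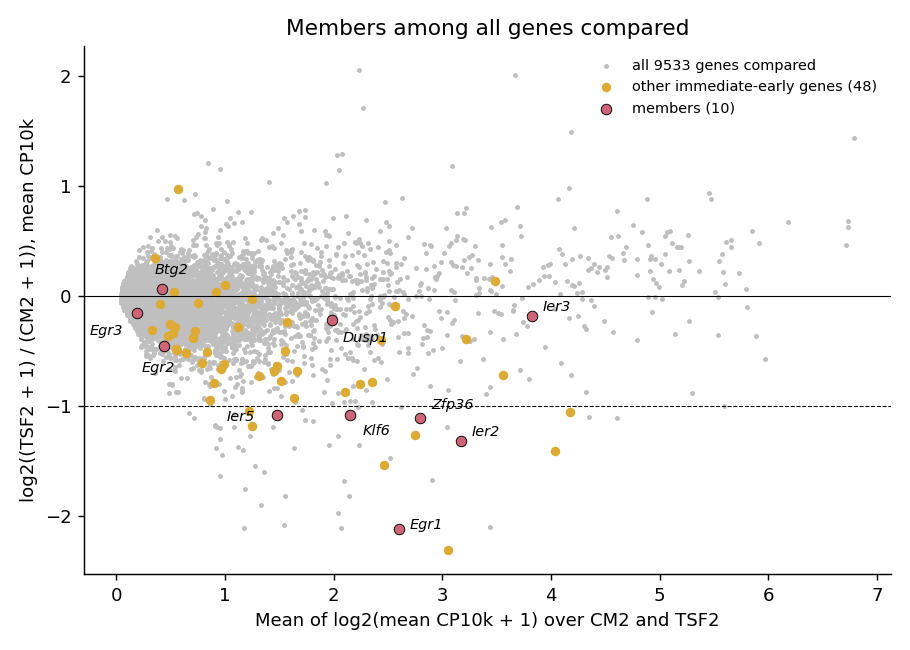
Log2 ratio of TSF2 to CM2 (vertical axis) against the mean log2 level of both libraries (horizontal axis) for all 9533 genes that passed the filter (grey), with 48 other immediate-early genes in yellow and the 10 chosen genes in red. The dashed line is the 2-fold decrease, below which Egr1, Ier2, Zfp36, Klf6 and Ier5 lie.

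Promoters were searched for the sites of SRF, CREB and other regulators of such genes. Windows of 250 bases before to 50 bases after the start site were taken from RefSeq (GRCm38.p6) for 7 of the 10 genes, in 11 windows. Those of Egr1, Egr3 and Ier2 were not used here. Each window was searched on both strands. A CArG box, the SRF site, was found in Zfp36 and Egr2, beside 1.63% of 32851 promoters. A gene was counted here if any of its windows matched, whereas the promoters were counted window by window. Egr2 had several windows, and the one that starts at position 67535249 held no CArG box. The cAMP response element TGACGTCA was found in Btg2 and Dusp1, beside 1.79%, and the shorter core TGACG, which lies inside the full element, in Btg2, Dusp1 and Egr2, beside 20.8%. The Egr site (GCGTGGGCG or GCGGGGGCG) was found in Zfp36, beside 3.47%. The AP-1 site (TGACTCA or TGAGTCA; 5.2% of promoters) and the TATA box letters TATAAA (13.6%) were found in none of the 7. Ier3, Ier5 and Klf6 held none of these letters in their windows. A match describes letters and not a bound site.

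The 250 bases before the start site are given for the 4 genes whose windows held a full CArG box or cAMP response element, 5' to 3' on the strand of the gene, with the matches in capitals. They show where the sites lie in Zfp36, which was called lower by its mean, and in Egr2, Dusp1 and Btg2, which were not. The share of cells differed by -20.6 points in Zfp36, -30.1 in Egr2, -25.5 in Dusp1 and 3.8 in Btg2. Ier5 and Klf6, also called lower, held none of the letters searched for. Whether the sites had a part in the differences was not tested. The Zfp36 window (chr7:28379229-28379478, minus strand) has the CArG box CCATAAAAGG starting at position -58 from the start site and the Egr site at -105. The Egr2 window (chr10:67537619-67537868, plus strand) belongs to a start site inside the gene model and has the CArG box CCATATATGG at -72. Dusp1 (chr17:26508473-26508722, minus strand) has the cAMP response element at -143, and Btg2 (chr1:134079156-134079405, minus strand) at -166.
Zfp36: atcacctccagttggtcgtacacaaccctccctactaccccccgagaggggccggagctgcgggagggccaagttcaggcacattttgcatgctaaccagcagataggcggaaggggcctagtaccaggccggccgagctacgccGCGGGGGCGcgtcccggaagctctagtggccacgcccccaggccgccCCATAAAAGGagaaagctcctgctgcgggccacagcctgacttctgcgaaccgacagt
Egr2: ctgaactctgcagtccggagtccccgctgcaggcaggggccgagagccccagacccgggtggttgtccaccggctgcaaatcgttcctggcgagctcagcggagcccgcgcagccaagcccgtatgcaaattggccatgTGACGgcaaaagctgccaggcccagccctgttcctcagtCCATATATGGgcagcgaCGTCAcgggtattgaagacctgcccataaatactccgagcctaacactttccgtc
Dusp1: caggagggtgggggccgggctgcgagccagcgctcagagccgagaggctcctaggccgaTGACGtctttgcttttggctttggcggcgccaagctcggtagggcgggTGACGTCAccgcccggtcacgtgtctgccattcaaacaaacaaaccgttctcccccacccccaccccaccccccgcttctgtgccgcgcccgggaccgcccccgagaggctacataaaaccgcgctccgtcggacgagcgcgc
Btg2: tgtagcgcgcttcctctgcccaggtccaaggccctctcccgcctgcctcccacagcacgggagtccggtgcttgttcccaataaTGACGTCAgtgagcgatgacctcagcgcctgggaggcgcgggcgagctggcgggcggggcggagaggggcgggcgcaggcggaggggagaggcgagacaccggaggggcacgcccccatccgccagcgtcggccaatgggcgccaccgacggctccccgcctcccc

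Egr1, Egr2 and Egr3 encode zinc-finger transcription factors that bind GC-rich sites, and all 3 were at a lower level in TSF2. Mean Egr1 was 11.6 CP10k in CM2 and 1.92 CP10k in TSF2, a 6.05-fold lower mean and a log2 ratio of -2.11. This was the second lowest ratio of the 9533 genes (rank 2). Cells with an Egr1 UMI made up 26 of 29 in CM2 (89.7%, exact 95% interval 72.6 to 97.8) and 88 of 139 in TSF2 (63.3%, 54.7 to 71.3). The intervals, which cover counting error only, did not overlap. Divided by these shares, the level per cell with a UMI was 13.0 CP10k in CM2 and 3.04 CP10k in TSF2. By this split most of the Egr1 difference lay in how much such cells held, not in how many there were. The split depends on abundance, as described below.

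Egr2 and Egr3 were sparse in both libraries. The mean of Egr2 was 0.585 CP10k in CM2 and 0.156 CP10k in TSF2, a ratio of 3.76 without a pseudocount but a log2 ratio of only -0.46 with it. Its UMIs were seen in 15 CM2 cells (51.7%, 32.5 to 70.6) and 30 TSF2 cells (21.6%, 15.1 to 29.4), again with intervals that did not overlap. Egr3 had a mean of 0.201 CP10k in CM2 and 0.0793 CP10k in TSF2, with a UMI in 9 cells (31.0%, 15.3 to 50.8) and 19 cells (13.7%, 8.43 to 20.5), and its intervals overlapped. Per cell with a UMI, Egr3 was at 0.648 and 0.580 CP10k, beside 0.361 and 0.376 CP10k for 1 UMI at median depth. A level this near to that of 1 UMI leaves little room for a difference per cell, and none is read from it. Nab1 and Nab2, the corepressors that bind Egr proteins, had log2 ratios of -0.04 and 0.06.

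Ier2, Ier3 and Ier5 share a name as immediate early response genes. Ier2 and Ier5 encode related nuclear proteins that regulate transcription, whereas Ier3 is a separate protein that acts on cell survival under stress. Ier2 was at 13.2 CP10k in CM2 and 4.72 CP10k in TSF2 (2.81-fold, log2 ratio -1.32), and Ier5 at 3.07 and 0.921 CP10k (3.33-fold, log2 ratio -1.08). Their shares of cells differed less than their means. Ier2 had a UMI in 28 CM2 cells (96.6%, 82.2 to 99.9) and 121 TSF2 cells (87.1%, 80.3 to 92.1), and Ier5 in 25 (86.2%, 68.3 to 96.1) and 103 (74.1%, 66.0 to 81.2), with overlapping intervals for both. Ier3 stood apart from its namesakes: its mean was 14.1 CP10k in CM2 and 12.3 CP10k in TSF2 (1.14-fold, log2 ratio -0.18), with a UMI in 28 cells (96.6%) and 124 cells (89.2%, 82.8 to 93.8).

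Zfp36, Dusp1 and Btg2 encode proteins that limit a response. Zfp36 (tristetraprolin) binds AU-rich elements in the 3' untranslated region of messenger RNAs and hastens their decay, Dusp1 is a phosphatase that switches off MAP kinases, and Btg2 is an antiproliferative protein that works with the deadenylase that shortens poly(A) tails. The 3 differed from each other. Zfp36, whose promoter holds the CArG box and the Egr site, was at 9.22 CP10k in CM2 and 3.74 CP10k in TSF2 (2.46-fold, log2 ratio -1.11), with a UMI in 26 cells (89.7%) and 96 cells (69.1%, 60.7 to 76.6). Dusp1, one of the pair with a full cAMP response element, was at 3.26 and 2.66 CP10k (1.22-fold, log2 ratio -0.22), yet its share of cells was among those that differed most, 27 of 29 (93.1%, 77.2 to 99.2) against 94 of 139 (67.6%, 59.2 to 75.3), with intervals that did not overlap. The TSF2 cells that had Dusp1 held more of it, 3.93 CP10k per cell with a UMI against 3.50 CP10k in CM2. Btg2, the other of that pair, was at 0.303 CP10k in CM2 and 0.367 CP10k in TSF2 (log2 ratio 0.07), with a UMI in 11 cells (37.9%, 20.7 to 57.7) and 58 cells (41.7%, 33.4 to 50.4), and the level per cell was 0.799 and 0.879 CP10k. A difference in the share of Btg2 cells was not detectable with 29 CM2 cells.

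Klf6 encodes a zinc-finger factor of the Krüppel-like family. Its mean was 5.47 CP10k in CM2 and 2.05 CP10k in TSF2 (2.66-fold, log2 ratio -1.08). Shares of cells with a UMI were 89.7% (26 cells) and 82.0% (114 cells, 74.6 to 88.0). As for Ier2 and Ier5, most of the difference lay in the level per cell with a UMI, 6.10 and 2.51 CP10k.

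**Figure D3:**
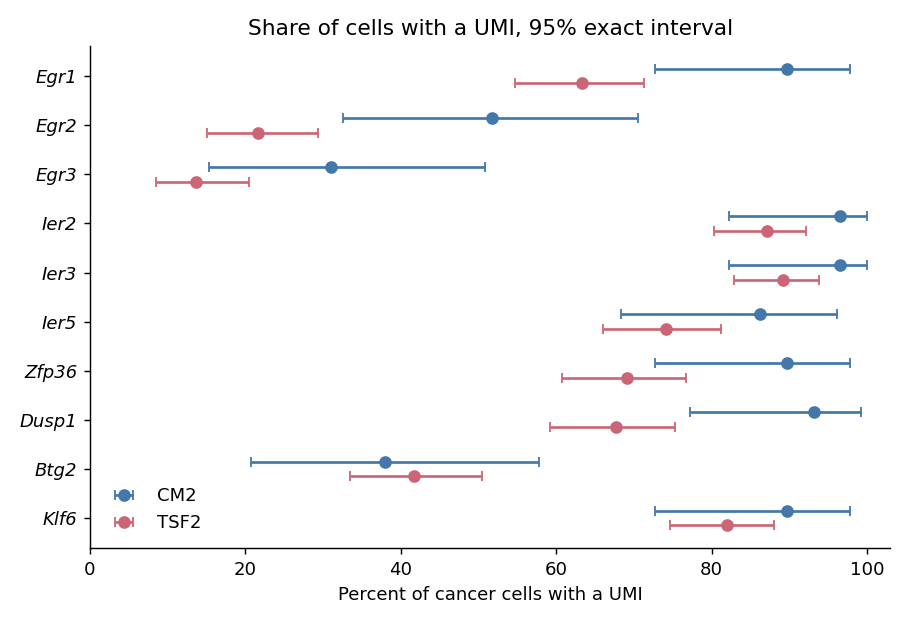
Percent of cancer cells with a UMI of each gene in CM2 (blue) and TSF2 (red), with exact 95% intervals that cover counting error only. The intervals are apart for Egr1, Egr2 and Dusp1 and overlap for the other 7 genes, and those of CM2 are wide because it holds 29 cells. The share of all genes compared whose intervals are apart was not counted, so nothing is read from this count.

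Counted by the share of cells, 9 of the 10 genes were lower in TSF2 and 4 of them by 20 percentage points or more, Egr2 (-30.1 points), Egr1 (-26.3), Dusp1 (-25.5) and Zfp36 (-20.6). Over all 9533 genes, 3.57% (340 genes) were lower by that much and 3.3% (315 genes) higher, and 4798 genes were lower by any amount. The median difference was -14.7 points over the 10 genes and -0.09 over all genes. Only Egr1 and Zfp36 met both this limit and the 2-fold call. Shares of cells with a UMI depend on depth, and they were not thinned to equal depth because counts of single cells were not used here. The part of depth in the shares was not tested. The share of each gene in a cell type that should lack it, which would measure free RNA, was not analysed here.

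A mean over all cells is the product of the share of cells with a UMI and the level in those cells, so its log2 ratio without a pseudocount is the sum of theirs. The split depends on how abundant a gene is. A gene with many UMIs per cell can fall in level while most cells keep a UMI, and a sparse gene falls mainly in its share. No more than a description is therefore read from it. For Egr1, Ier2, Ier5 and Klf6, which had a UMI in 86.2% to 96.6% of CM2 cells, the share of cells gave a small part of the log2 difference. This part was between 9.10% (Klf6) and 19.3% (Egr1), and the rest came from the level. For Zfp36 it was 29.0%. For Egr2 (66.0%) and Egr3 (88.1%), most came from the share. The level of Egr2 per cell with a UMI was 1.13 CP10k in CM2 and 0.721 CP10k in TSF2, and that of Egr3 was near to 1 UMI, as given above. In Dusp1 the parts had opposite signs, -0.46 for the share and 0.17 for the level. Without the pseudocount, 7 of the 10 means were lower by 2-fold or more, Egr2 and Egr3 being the 2 added.

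**Figure D4:**
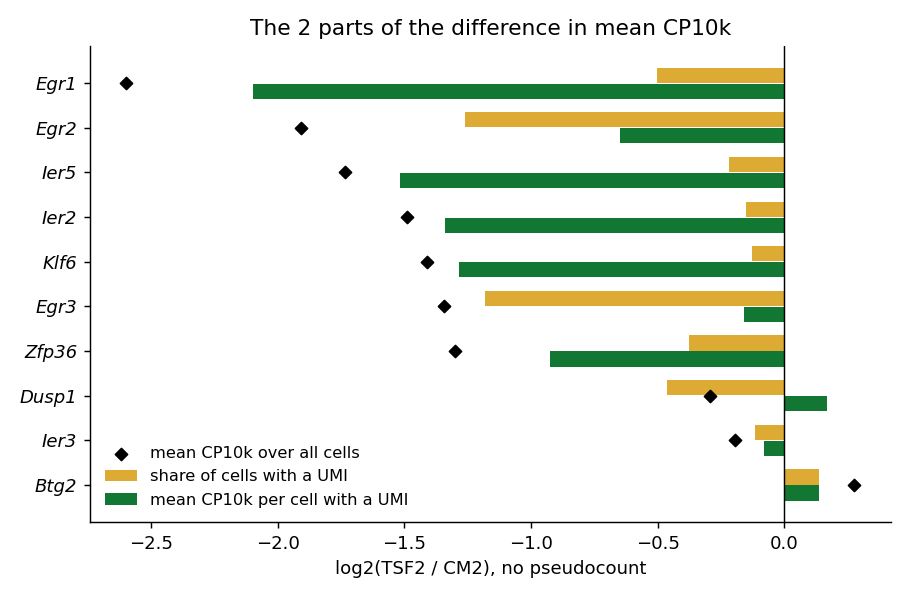
For each gene, the log2 ratio of TSF2 to CM2 of the mean CP10k (black diamond) and the parts that add up to it, the share of cells with a UMI (yellow bar) and the mean CP10k per cell with a UMI (green bar), without a pseudocount. The green bar is the longer one for Egr1, Ier5, Ier2, Klf6 and Zfp36, the yellow one for Egr2, Egr3 and Ier3, and the bars point in opposite directions for Dusp1.

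The cancer cells fell into the authors' fine clusters 120 and 131 in unlike proportions, and this moved with the contrast. Cluster 131 held 23 of the 29 CM2 cells (79.3%, 60.3 to 92.0) and 54 of the 139 TSF2 cells (38.8%, 30.7 to 47.5), and cluster 120 held 6 (20.7%) and 85 (61.2%). Egr1, Ier3, Zfp36 and Dusp1 were among the 1000 variable genes that the authors used to cluster cells. Levels within each cluster were not analysed here, so the part of cluster makeup in the differences was not tested. At day 11 the libraries held 6 cancer cells (CM) and 32 and 43 (TSF), and levels of the 10 genes in them, or in other cell types, were not analysed here.

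Most other immediate-early genes were also at a lower level in TSF2. Of 52 listed, 48 passed the filter. Of these, 7 (14.6%) were called lower, beside 0.566% of all 9533 genes, and 0 higher. A log2 ratio below 0 was found for 42 (87.5%), beside 60.2% of all genes. Their median log2 ratio was -0.50. The list was chosen with earlier results of these data known, so these counts are a description and not support. Those called lower were Atf3, a stress-induced factor of the ATF family (17.5 CP10k in CM2, 2.73 in TSF2, log2 ratio -2.31), the AP-1 subunits Fosl1 (8.39 and 2.24, -1.53), Jun (25.7 and 9.06, -1.41) and Junb (25.0 and 11.6, -1.05), the matricellular protein gene Ccn1 (9.39 and 3.33, -1.26), the nuclear receptor gene Nr4a1 (2.58 and 0.579, -1.18) and Gadd45g of the growth arrest and DNA damage family (2.35 and 0.627, -1.04). Fos itself was at 9.69 and 7.15 CP10k (log2 ratio -0.39). Of the 6 at or above 0, Cebpd, a C/EBP factor, was furthest from the rest, with a log2 ratio of 0.98. Arc was at 0 cells in both libraries, and Egr4, Nr4a3 and Ccn2 did not pass the filter.

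None of the genes of the route to these promoters was called lower or higher on the scale with a pseudocount of 1, which understates ratios of sparse genes. Of 24 genes of the ERK, SRF and CREB route, 22 passed the filter, 0 of which were past the threshold, and the median log2 ratio was -0.08. Creb1, which encodes CREB, was at 0.578 CP10k in CM2 and 0.220 in TSF2 (log2 ratio -0.37), and the SRF partners Elk4 and Elk3 had log2 ratios of -0.29 and -0.20. Without a pseudocount, the mean of Creb1 was 2.63-fold and that of Elk4 2.15-fold lower in TSF2, and the log2 ratio of Creb1 was -1.08 with a pseudocount of 0.1. Srf had a UMI in 2 CM2 cells and 16 TSF2 cells, and Elk1 in 4 and 19, too few to set a level. These kinases and factors act through phosphorylation, which the assay does not measure.

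Of 35 relatives of the 10 genes (other Dusp, Klf, Btg, Tob and Zfp36 family genes, Egr4 and Ier5l), 26 passed the filter and 0 were called lower or higher. A log2 ratio below 0 was found for 21 (80.8%), beside 60.2% of all genes compared, with a median of -0.22. The lowest were Dusp5 (1.53 CP10k in CM2, 0.313 in TSF2, log2 ratio -0.94) and Dusp6 (-0.77), phosphatases of ERK, and the Krüppel-like factors Klf10 (-0.79), Klf2 (-0.64) and Klf5 (-0.50). Some of these genes also belong to the list of other immediate-early genes.

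Heat shock genes, which protein damage and heat induce, lay on both sides of 0, with more of them below it. Of the 12 that passed the filter, 9 (75.0%) had a log2 ratio below 0, beside 60.2% of all 9533 genes. From 13 listed, 2 were called lower (16.7% of those that passed, beside 0.566% of all genes). They were Dnajb1, a co-chaperone (7.14 CP10k in CM2, 1.08 in TSF2, log2 ratio -1.97), and Hspa1b (4.02 and 0.932, -1.38). Hspa1b is an inducible Hsp70 whose reads can be shared with its near-identical copy Hspa1a. Hspa8 (52.3 and 28.0 CP10k, -0.88) and Hspd1 (-0.51) were lower without passing the call, and Hspb1 was at a log2 ratio of 0.88. The median was -0.32. Ribosomal protein genes (100 Rpl and Rps genes) took 18.6% of the summed CP10k in CM2 and 23.9% in TSF2, and every other gene is measured beside them. Without them, 5 of the 10 were still called lower. The part of heat shock genes in the lower levels of the 10 was not tested.

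**Figure D5:**
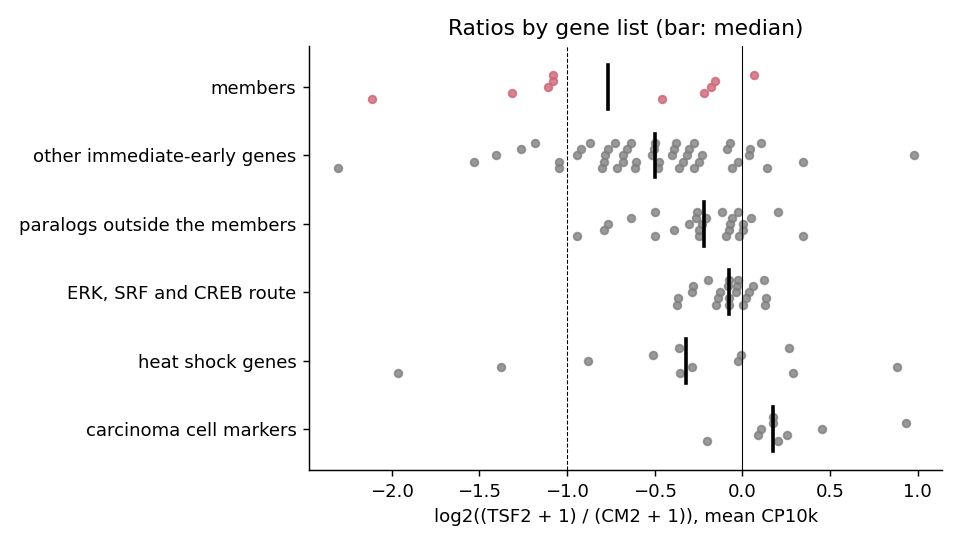
Log2 ratio of TSF2 to CM2 for each gene that passed the filter, by gene list, with the 10 chosen genes (members) in red, the median of each list as a black bar and the 2-fold decrease as a dashed line. The median lies at -0.77 for the 10 genes, -0.50 for other immediate-early genes, -0.22 for relatives (paralogs), -0.08 for the ERK, SRF and CREB route and -0.32 for heat shock genes.

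The genes whose pair of levels was most like that of Egr1 were Fosl1, H2-Q4, Bst2, Ccn1 and Atf3, at Euclidean distances of 0.455, 0.469, 0.531, 0.635 and 0.650 over the log2(CP10k + 1) values of the 2 libraries. H2-Q4 is an MHC class I gene (8.53 CP10k in CM2, 2.44 in TSF2) and Bst2 an interferon-induced antiviral gene (12.4 and 3.20). With 2 values per gene, this likeness says only that both levels are close.

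All 10 genes belong to the Hallmark set of TNF signaling via NF-kB, a published list of genes induced by the cytokine TNF, as deposited with the series. Without them, 144 of its 190 other genes passed the filter, with a median log2 ratio of -0.18. Of these 144, 9 (6.25%) were called lower, beside 0.566% of all genes compared, and 1 higher. Irf1, a transcription factor of the interferon response, was lower among them (6.64 and 1.39 CP10k, log2 ratio -1.68).

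Most of the 10 genes have a compact structure, with Dusp1 as an exception by its long model. In the GENCODE M21 models on GRCm38, their median span was 4.56 kb, beside 24.5 kb over 9318 genes compared, and 8 of the 10 (80%) had at most 2 exons, beside 5.56%. Ier2 (chromosome 8, 84661331 to 84662852) and Ier5 (chromosome 1, 155096361 to 155099636) are single-exon genes on the minus strand. Egr2 (chromosome 10, 67535475 to 67542188), Egr3 (chromosome 14, 70077203 to 70082614) and Ier3 (chromosome 17, 35821684 to 35822923) have 2 exons on the plus strand, as does Egr1 on chromosome 18. Zfp36 (chromosome 7, 28376784 to 28380253) and Btg2 (chromosome 1, 134075170 to 134079120) have 2 on the minus strand. Klf6 (chromosome 13, 5861482 to 5870394, plus strand) and Dusp1 (chromosome 17, 26505590 to 26562128, minus strand) have 4. Zfp36 overlaps Gm44710 on the other strand. The long Dusp1 model overlaps 4 genes, AC122252.4 and AC122252.1 on its own strand and Gm8225 and Ergic1 on the other. Whether reads were split between Dusp1 and the genes on its own strand was not tested.

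The heptamer TATTTAT, the core of the AU-rich element that Zfp36 binds, was counted in the 3' untranslated regions. It occurred in 5 of the 10 (50.0%), beside 28.3% of 9210 genes compared and 62.5% of the other immediate-early genes. Ier3 had 4 copies, Zfp36 itself 3, Dusp1 3, Klf6 2 and Btg2 1. Egr1, Egr2, Egr3, Ier2 and Ier5 had 0. Ier3 (-0.19), Dusp1 (-0.29) and Btg2 (0.28), the 3 genes with log2 ratios nearest to 0 without a pseudocount, were among the 5 with the heptamer, and so were Zfp36 and Klf6, which were called lower. This look at the heptamer was chosen after the values were seen.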

How the data were processed

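Lungs were dissociated, pooled over 3 mice per group and made into 10x Genomics 5' libraries. Per the labels, reads were mapped to mm10 (GRCm38.p6) with Cell Ranger, and Seurat 4.1.0 was among the tools. The study's methods state a correction of counts for ambient RNA with SoupX. Cell types were assigned by the authors, whose methods state no removal of doublets among the sub-clustered cancer cells, and none was made here. The deposited cell table gave UMI counts and the percent of mitochondrial UMIs per cell. The deposited gene table of cancer cells gave mean CP10k (a signal, UMIs per 10000 of a cell), the count of cells with a UMI and the percent of such cells. The authors' fold changes, p-values, q-values, ranking scores and enrichment scores compare TSF2 with CM2, and these columns were not used. The cell table also held 2 libraries not used here.

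Shares were given with exact Clopper-Pearson intervals (95%), which cover counting error only. Genes entered the background at a mean share of at least 10%. The script was tested on simulated data. The 10 genes and all gene lists were chosen with earlier results of these data known. Named genes were the 10, the 5 with the largest absolute log2 ratio in each list, Srf, Nab1, Nab2, Elk1 and Creb1, and the 5 nearest to Egr1. Some genes that this rule names are not reported here. Fos, Irf1, Hspa8 and single marker genes were named after their values were seen. Alternatives were other pseudocounts, thresholds, filters and scalings. With 1 library per group no standard error, p-value or count of significant genes was derived from cells. Software was Python 3.11.15 with scipy 1.17.1, pandas 2.3.3, numpy 2.4.6 and, for figures, matplotlib 3.10.9.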

Additional observations from a re-analysis of the deposited data

How the results depend on the processing

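The log2 ratio of each of the 10 genes kept its sign under pseudocounts of 0.1 and 0.5, without Rpl and Rps genes and under median centring. The count called lower, 5, was 2 under median centring and 1 at a 3-fold threshold, and the other settings gave 5 or 6. Calls that changed for single genes were Egr2 at a pseudocount of 0.1 (-1.42) and Ier5, Zfp36 and Klf6 under median centring. The median ratio of the 10 genes, -0.77, was -1.32 and -0.96 at pseudocounts of 0.1 and 0.5. The count of other immediate-early genes called lower, 7, was 23 at a pseudocount of 0.1 and 22 at a 1.5-fold threshold. The share of all genes called lower, 0.566%, was 5.0% at a pseudocount of 0.1, 0.373% with no filter and 1.11% among genes with a mean share of at least 50%. The count of the 10 lower by 20 points, 4, was 1 at 30 points and 2 by a 1.5-fold ratio of shares. A smaller pseudocount raises the ratios of sparse genes by construction. For the other changes the cause was not tested.

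No paired analysis was possible because each group was 1 library, and there was no replicate to leave out. The differences are between 2 pools of 3 mice, with no measure of the spread between mice. The 29 cancer cells of CM2 give wide intervals for its shares.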

Other observations

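Among the genes with the lowest log2 ratios of all 9533, Atf3, Egr1 and Dnajb1 belong to the lists of immediate-early and heat shock genes, and Gbp4, Gbp2, Cd74, Igtp and H2-Aa are genes that interferon gamma is known to induce. The interferon-induced genes were not on a list fixed for this work and were named after their values were seen.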
